A study of Mus musculus with 12 samples.

Results

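The blood-brain barrier endothelial genes are 10 genes out of 55487 gene rows in the study: Cldn5, Pecam1, Flt1, Kdr, Eng, Slc2a1, Slco1a4, Tek, Abcb1a and Mfsd2a. They were chosen by name from their known roles in brain vessels. The rule uses no measured value, but earlier results of these data were known when the genes were chosen. RNA sequencing of total RNA was done on cerebral cortex and hippocampus of C57BL/6 mice of genotype mTert KO (G1), called KO here, and mTert WT, called WT here. Tert encodes the catalytic subunit of telomerase, and the question was which brain transcripts differ without it. Each tissue had 3 KO and 3 WT libraries, 12 in all, of 68424934 to 77972013 reads in cortex and 72401909 to 86639113 reads in hippocampus. The labels give neither age nor sex, and they do not say that replicates were different mice, so a p-value here reflects variation among libraries that could be technical.

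Endothelial cells of brain capillaries form the blood-brain barrier. Tight junctions built around claudin-5 close the gaps between neighbouring cells, low vesicle traffic limits passage through them, and dedicated carriers bring glucose, lipids and other nutrients in while efflux pumps send foreign compounds back to the blood. Pericytes and astrocyte endfeet that wrap the vessel, and Wnt signals from the brain, keep this state. Receptors for VEGF, angiopoietin and TGF-beta ligands on the same cells govern vessel growth and stability.

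The positions below are in GRCm38 and the exonic lengths are of all annotated exons merged. Cldn5 (ENSMUSG00000041378) lies at chr16:18776847-18778262 on the plus strand, with 1416 exonic bases. Eng lies at chr2:32646595-32682669 on the plus strand, and its exons overlap those of Fpgs on the other strand. Slc2a1 lies at chr4:119108711-119137983 on the plus strand, Slco1a4 at chr6:141805440-141856199 on the minus strand and Mfsd2a at chr4:122946850-122961188 on the minus strand. Abcb1a, at chr5:8660077-8748575, has a related neighbour gene, Abcb1b, and whether reads of one were counted for the other was not tested. The remaining members lie on chromosomes 4 (Tek), 5 (Flt1, Kdr) and 11 (Pecam1).

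RefSeq promoter sequences (GRCm38.p6) were found for 9 of the 10 members; Pecam1 was the member with none. The 150 bases before the start of Cldn5 (chr16:18776697-18776846, plus strand), Eng (chr2:32646445-32646594, plus strand), Slco1a4 (chr6:141856221-141856370, minus strand) and Mfsd2a (chr4:122961189-122961338, minus strand) are shown, each 5′ to 3′ on the strand of the gene. Eng and Slco1a4 are shown because they were called higher in KO cortex, and Mfsd2a because it was called higher in KO hippocampus. Cldn5 had lower estimates in KO in both tissues but passed in neither (limma adjusted p = 0.062 in cortex and 0.0844 in hippocampus). Slc2a1, also called higher in KO cortex, is not shown. Capitals mark the core that ETS factors, a family active in endothelial cells, can bind (GGAAG, or CTTCC for the other strand).
Cldn5: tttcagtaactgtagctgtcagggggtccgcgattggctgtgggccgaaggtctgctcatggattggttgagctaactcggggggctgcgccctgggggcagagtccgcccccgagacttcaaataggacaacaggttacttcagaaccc
Eng: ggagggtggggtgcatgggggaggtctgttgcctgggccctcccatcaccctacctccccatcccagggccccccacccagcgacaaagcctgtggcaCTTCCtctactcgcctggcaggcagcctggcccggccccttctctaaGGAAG
Slco1a4: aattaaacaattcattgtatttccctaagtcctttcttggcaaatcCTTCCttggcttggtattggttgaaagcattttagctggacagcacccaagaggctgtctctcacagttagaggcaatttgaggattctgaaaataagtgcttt
Mfsd2a: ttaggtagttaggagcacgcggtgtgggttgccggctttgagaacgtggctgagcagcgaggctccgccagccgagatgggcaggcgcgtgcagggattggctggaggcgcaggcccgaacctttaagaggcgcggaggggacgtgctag
In the 250 bases before the start, 5 of the 9 member promoters held this core on either strand, against 64.1% of 32851 RefSeq mouse promoters, so its share among the members was near that of promoters in general. Cldn5, Slc2a1, Tek and Mfsd2a held none in that window. The core of hypoxia-inducible factors (ACGTG, either strand) occurred in Slc2a1 and Mfsd2a, 2 of 9 members, against 16.6% of promoters. The SOX core (ACAAT) occurred in 2 of 9 members against 27.7%, and the TCF/LEF core (CTTTG) in 5 of 9 against 48.6%. No ETS match overlapped a match to another of these cores, and a match describes the letters only.

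The labels were first checked on the targeted gene. Tert had 0, 0 and 0 normalized counts in KO cortex, against 206, 105 and 241 in WT cortex. It had 0, 6.31 and 0 in KO hippocampus, against 147, 184 and 128 in WT hippocampus. A normalized count is the authors' read count divided by a size factor for the library. In WT cortex, library 2 stood apart from the others over all genes: the chi-square per gene was 106 and 95.9 against WT libraries 1 and 3, and 9.52 between those 2. In WT hippocampus, libraries 1 and 2 differed most, at 59.7 per gene. Among the 10 members, WT cortex library 2 was the lowest WT library for Eng, Tek, Abcb1a, Slco1a4, Kdr and Flt1 and the highest for Cldn5, Mfsd2a, Slc2a1 and Pecam1. The 3 members with the shortest exonic length (1416 to 3506 bases) were among the 4 that were highest there. The erythrocyte genes summed to 21989 normalized counts in that library, against 10872 and 12778 in WT libraries 1 and 3, and whether this bears on the members was not tested.

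All 10 members were well measured in both tissues, with at least 664 normalized counts in each library, and all passed the filter of a mean of at least 10. Per kilobase of exon, the level order in KO cortex began with Slc2a1 at 1839 ± 25.4 normalized counts per kb (SD, n = 3), then Cldn5 at 1148 ± 41.4, Mfsd2a at 677 ± 24.9 and Eng at 592 ± 1.41, none of which overlapped its neighbour. In WT cortex Cldn5 came first at 1512 ± 128 normalized counts per kb and Slc2a1 second at 1294 ± 101, with overlapping libraries. The same held in hippocampus: Slc2a1 led at 2203 ± 48.2 normalized counts per kb in KO, above Cldn5 at 1468 ± 86.0, whereas in WT Cldn5 averaged 2667 ± 1157 and Slc2a1 1846 ± 440, again overlapping. Kdr was the lowest member in each of the 4 groups, at 106 ± 4.20 normalized counts per kb in KO cortex and 104 ± 20.2 in WT cortex.

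In cortex, the barrier members that rose in KO were endoglin and 2 carriers, 3 of 10 members, and 0 fell. Over all 21945 tested genes, 1.94% were called at an adjusted p below 0.05 (1.28% higher and 0.661% lower in KO; limma, Benjamini-Hochberg over all tested genes). The median log2 fold change of the members was 0.40, against -0.01 for all tested genes. The KO and WT libraries did not overlap for 6 members, 5 higher and 1 lower in KO, against 28.3% of all tested genes.

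The receptors and adhesion molecules differed among themselves in cortex. Eng, a co-receptor for TGF-beta family ligands on endothelial cells, had 2400.4, 2399.8 and 2390.3 normalized counts in KO cortex, against 1479, 1446 and 1507 in WT cortex. The coefficient of variation of the KO libraries was 0.24%, and all of them stood above the WT libraries, with a log2 fold change of 0.70 ± 0.06 (SE; limma adjusted p = 0.00529). Fpgs, whose exons overlap those of Eng on the other strand, had 502, 531 and 511 normalized counts in KO cortex and 489, 491 and 507 in WT cortex. Flt1, a VEGF receptor that also acts as a trap for the ligand, had 6044, 5736 and 6033 normalized counts in KO cortex and 4633, 3514 and 4853 in WT cortex. Its groups did not overlap, but the log2 fold change of 0.47 ± 0.12 did not pass (limma adjusted p = 0.109), and the lowest value was WT library 2. Kdr, the main signalling receptor for VEGF, had 999, 943 and 927 normalized counts in KO cortex and 1008, 735 and 1081 in WT cortex. The KO values fell between the WT ones, and the log2 fold change was 0.04 ± 0.14 (95% interval -0.30 to 0.38). Tek, the receptor for angiopoietins, had 1129, 879 and 950.1 normalized counts in KO cortex and 919, 664 and 892 in WT cortex, which overlapped. Pecam1, an adhesion molecule of endothelial junctions and a general marker of vessels, had 1364, 1128 and 1249 normalized counts in KO cortex and 1056, 1208 and 1118 in WT cortex. Its log2 fold change was 0.14 ± 0.10 (95% interval -0.08 to 0.37), so a rise as large as that of Eng lay outside its interval.

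**Figure D1:**
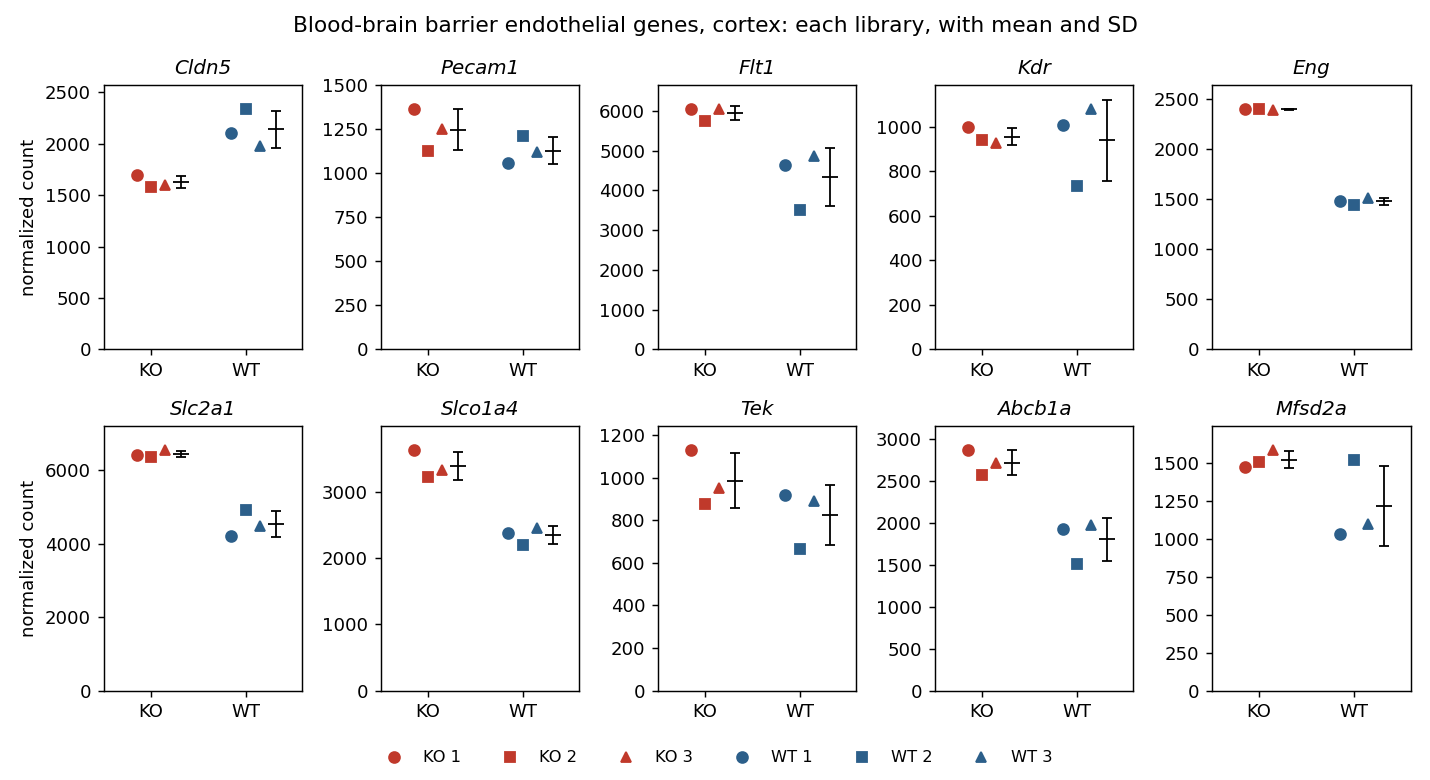
Normalized counts of the 10 genes (one panel each, y axis from 0) in the 3 KO and 3 WT cortex libraries, with the mean and SD (bars) beside the points. The KO libraries of Eng, Slc2a1, Slco1a4, Abcb1a and Flt1 sit above every WT library and those of Cldn5 below, while WT library 2 (square) is the highest or lowest WT value in every panel.

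Of the 4 carriers and pumps, 2 rose in KO cortex. Slc2a1, the GLUT1 glucose carrier of the barrier, had 6424, 6374 and 6547 normalized counts in KO cortex, against 4208, 4913 and 4489 in WT cortex. Every KO library exceeded every WT library, with a log2 fold change of 0.51 ± 0.07 (limma adjusted p = 0.0243). Slco1a4, a carrier of organic anions such as steroid conjugates, had 3625, 3218 and 3322 normalized counts in KO cortex, against 2385, 2190.0 and 2451 in WT cortex. It rose by 0.53 ± 0.08 on the log2 scale (limma adjusted p = 0.0266), again without overlap. Abcb1a, one of the P-glycoprotein efflux pumps, had 2869, 2574 and 2713 normalized counts in KO cortex and 1926, 1506 and 1980 in WT cortex. Its groups did not overlap either, and its log2 fold change of 0.60 ± 0.11 lay just outside the threshold (limma adjusted p = 0.0505). Mfsd2a, a lysophospholipid carrier that supplies omega-3 fatty acids and keeps vesicle traffic low, had 1477, 1508 and 1586 normalized counts in KO cortex and 1036, 1523 and 1098 in WT cortex. WT library 2 alone reached the KO range, and the log2 fold change was 0.34 ± 0.14 (limma adjusted p = 0.265).

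Cldn5, the claudin that seals the tight junctions of the barrier, was the member whose KO libraries were all lower. It had 1692, 1581 and 1604 normalized counts in KO cortex, against 2103, 2339 and 1981 in WT cortex. The groups did not overlap, and the log2 fold change of -0.39 ± 0.08 did not pass (limma adjusted p = 0.062). The cortex calls depended on single libraries. Without WT cortex library 2, 6 members rose (Eng, Slc2a1, Slco1a4, Abcb1a, Flt1 and Mfsd2a) and Cldn5 fell, by 0.33 on the log2 scale (limma adjusted p = 0.003), but then 21.4% of all genes were called. Without KO cortex library 3, 0 members passed, Eng at an adjusted p of 0.0626, and 0.0682% of all genes were called. With a trend along exonic length removed, 5 members rose (Flt1 and Abcb1a beside the 3) and Cldn5 fell by 0.30 (adjusted p = 0.0246), with 5.86% of all genes called.

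Gene lists around the members, with their roles, were set beside the shares among all tested genes in cortex. Those shares were 1.28% called higher and 0.661% called lower in KO. Of 26 further endothelial identity genes 3 rose and 0 fell: Vwf, von Willebrand factor (log2 fold change 0.79 ± 0.14, limma adjusted p = 0.0446), Robo4, a guidance receptor of vessels (0.69 ± 0.12, adjusted p = 0.0446), and Pltp, a lipid transfer protein (0.40 ± 0.06, adjusted p = 0.0367). Their list's median log2 fold change was 0.25, against -0.01 over all genes. In bulk tissue, more or fewer endothelial cells and more or less RNA per cell cannot be told apart. When each library was instead scaled to this endothelial list, a choice made after the data were seen, Eng stayed higher in KO cortex (log2 fold change 0.45, limma adjusted p = 0.0214) and Cldn5 was called lower (-0.64, adjusted p = 0.0103). On that scale Slc2a1 and Slco1a4 did not pass (adjusted p = 0.0626 and 0.0545), Pecam1 and Kdr turned to -0.10 and -0.21, the median of all genes moved to -0.26, and 14% of all genes were called.

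Of 15 endoglin and TGF-beta signalling genes, 1 rose in KO cortex, where 1.28% of all tested genes did. It was Acvrl1, the ALK1 receptor that works with endoglin, at 1134, 1229 and 1230.4 normalized counts in KO cortex against 682, 708 and 702 in WT cortex. Its groups were far apart, at a log2 fold change of 0.78 ± 0.07 (limma adjusted p = 0.00723). Of 20 other barrier transporters 2 rose: Tfrc, the transferrin receptor that takes up iron (0.60 ± 0.10, adjusted p = 0.0439), and Abcc4, an efflux pump (0.46 ± 0.08, adjusted p = 0.046). None of 14 junction partners of claudin-5, 19 tested VEGF and angiopoietin genes, 14 Wnt7 and norrin genes, 7 caveolae and fenestrae genes, 12 arterial and venous zonation genes or 5 tested endothelial activation genes was called in either direction by limma in cortex. Without KO cortex library 3, Acvrl1 and Abcc4 had adjusted p-values of 0.0724 and 0.219, and Tfrc one of 0.209; Vwf, Robo4 and Pltp did not pass either.

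Markers of neighbouring cells also moved in cortex, and their part in the members' values was not tested. Among all tested genes there, 1.28% were called higher and 0.661% lower in KO. Of 17 mural cell genes, Rgs5, a pericyte gene, rose (0.37 ± 0.06, limma adjusted p = 0.0417). Of 13 meningeal and perivascular fibroblast genes, Slc6a13, a GABA carrier, fell by 1.27 ± 0.20 on the log2 scale (limma adjusted p = 0.038). The summed level of the 13 genes was 4823 to 8674 normalized counts in KO cortex against 9347 to 9948 in WT cortex. Of 14 choroid plexus genes 1 rose, with sums of 2850.0, 12094 and 7580 normalized counts in KO cortex against 1751 to 1965 in WT cortex. Striatal neuron genes, markers of a neighbouring region, rose in 11 of 13 cases, with sums of 42601, 68105 and 54873 in KO cortex against 18891 to 19570 in WT cortex. None of the 19 lists had a member at 0 in every library.

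**Figure D2:**
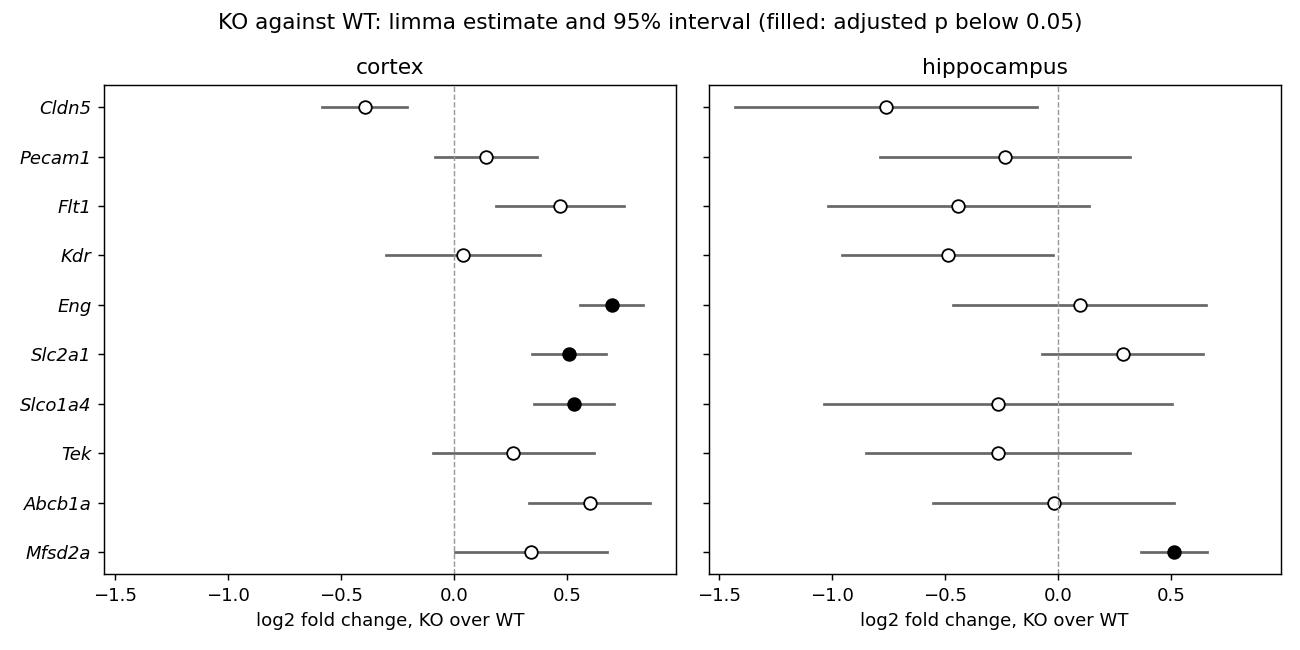
log2 fold change, KO over WT, of the 10 genes in cortex (left) and hippocampus (right), with the 95% interval from limma; filled points have an adjusted p below 0.05. Intervals are wider in hippocampus for every gene except Mfsd2a, and Cldn5 is the lowest estimate in both tissues.

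In hippocampus, Mfsd2a was the single member called, and the other 9 had overlapping groups, with WT libraries that spread widely. Mfsd2a rose in KO, with 1729, 1798 and 1581 normalized counts in KO hippocampus against 1145, 1224 and 1207 in WT hippocampus. Its log2 fold change was 0.51 ± 0.06 (limma adjusted p = 0.00104), and every KO library lay above every WT library. Of all 22337 tested genes, 29.2% were called (14.1% higher and 15.1% lower in KO) and 45.8% had groups that did not overlap, so 1 call and 1 separated member of 10 were below the share among all genes. Relative to the endothelial list described above, Mfsd2a was 0.65 higher on the log2 scale but did not pass (adjusted p = 0.536), as 0 members did, with 4.28% of all genes called. The median log2 fold change of the members was -0.25, against 0.02 for all tested genes.

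The remaining members shared a pattern across the WT libraries. Cldn5 had 1977, 2213 and 2044 normalized counts in KO hippocampus, against 5414, 2138 and 3778 in WT hippocampus. WT library 2 lay inside the KO range and the other WT libraries far above it, and the log2 fold change of -0.76 ± 0.29 did not pass (limma adjusted p = 0.0844). Slco1a4 had 3561, 3233 and 3506 normalized counts in KO hippocampus, against 6651, 2284 and 4633 in WT hippocampus. Its KO libraries fell between WT libraries 2 and 3, and the log2 fold change was -0.27 ± 0.33. Flt1 had 5094, 5203 and 5145 normalized counts in KO hippocampus, against 10189, 4540.1 and 7413 in WT hippocampus. Kdr had 1061, 1053 and 1147 normalized counts in KO hippocampus, against 2099.9, 1106 and 1528 in WT hippocampus. Both VEGF receptors were thus highest in WT libraries 1 and 3, with log2 fold changes of -0.44 ± 0.25 (limma adjusted p = 0.221) and -0.49 ± 0.20 (adjusted p = 0.107).

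Tek had 1125, 1104 and 1051 normalized counts in KO hippocampus and 1927, 856 and 1378 in WT hippocampus. Pecam1 had 1640.2, 1635 and 1606 in KO hippocampus and 2796, 1286 and 1953 in WT hippocampus. Both again had their KO libraries between WT libraries 2 and 3. Eng had 2702, 2704 and 2649 normalized counts in KO hippocampus and 3713, 1693 and 2533 in WT hippocampus. Abcb1a had 2676, 2522 and 2804 in KO hippocampus and 3855, 1842 and 2786 in WT hippocampus. The log2 fold changes of Eng and Abcb1a were 0.09 ± 0.24 (95% interval -0.46 to 0.65) and -0.02 ± 0.23 (95% interval -0.55 to 0.51). Slc2a1 had 7665, 7915 and 7593 normalized counts in KO hippocampus and 7954, 4874 and 6583 in WT hippocampus, with WT library 1 above the KO range and the others below it.

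**Figure D3:**
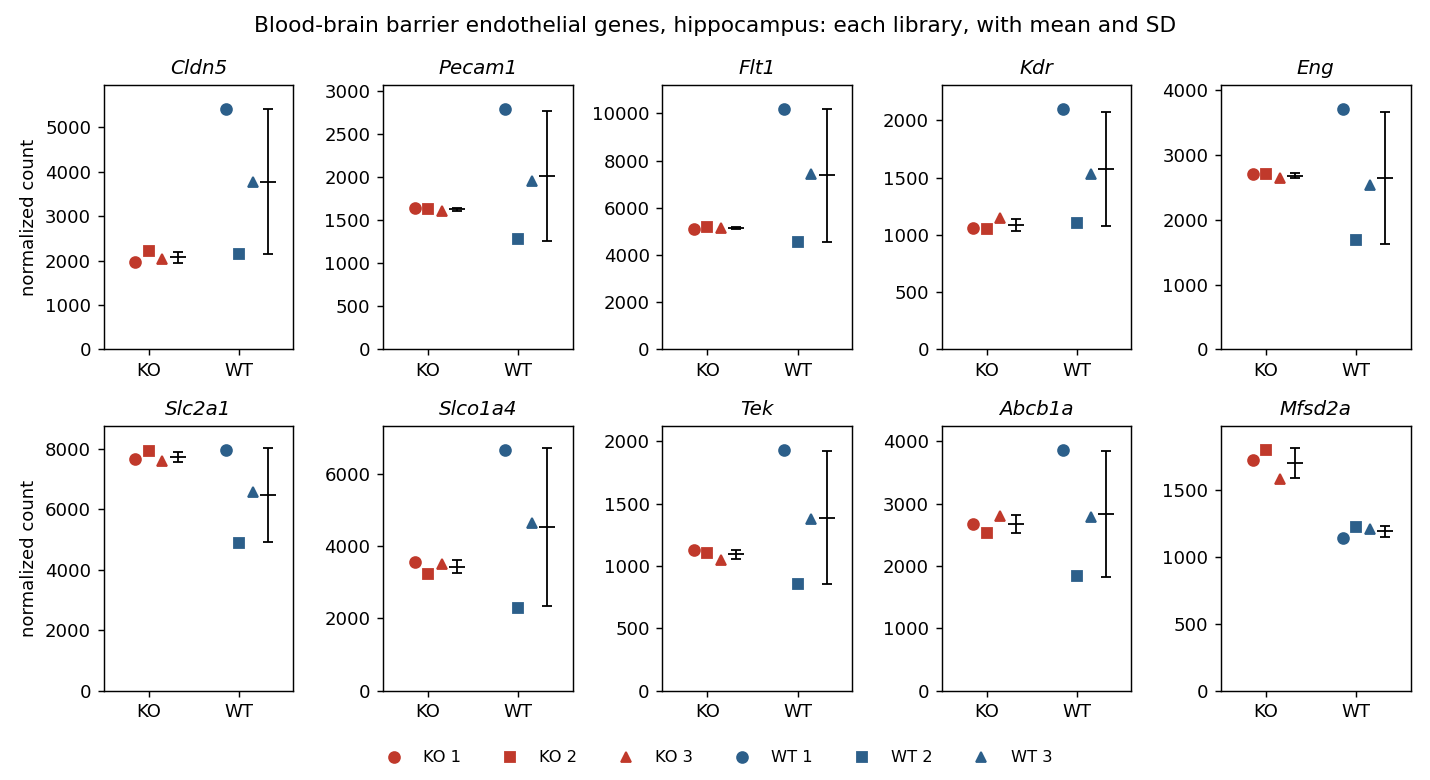
Normalized counts of the 10 genes (one panel each, y axis from 0) in the 3 KO and 3 WT hippocampus libraries, with the mean and SD (bars). WT libraries run in the order 1 (circle), 3 (triangle), 2 (square) in every panel but that of Mfsd2a, and the KO libraries stay close together.

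The order WT library 1 above 3 above 2 held in 9 of the 10 members, against 21.5% of all tested genes. The ratio of WT library 1 to WT library 2 ran from 1.63 for Slc2a1 to 2.91 for Slco1a4, and was 0.935 for Mfsd2a. The coefficient of variation was 1.06% to 6.52% in KO hippocampus and reached 48.3% in WT hippocampus. The same order held in 25 of 26 endothelial identity genes, 17 of 17 mural cell genes, 11 of 13 fibroblast genes and 14 of 14 choroid plexus genes. The summed choroid plexus level was 19529, 9877 and 14258 normalized counts in KO hippocampus, against 372644, 13551 and 193042 in WT hippocampus. The summed endothelial identity level was 61545, 62972 and 59527 in KO hippocampus against 90506, 49565 and 70679 in WT hippocampus. Genes of caveolae and fenestrae kept the order in 5 of 7 cases, with sums of 7668, 7929 and 7894 in KO hippocampus against 10300.3, 6347 and 8492 in WT hippocampus. The part of other tissue in the members' values was not tested.

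**Figure D4:**
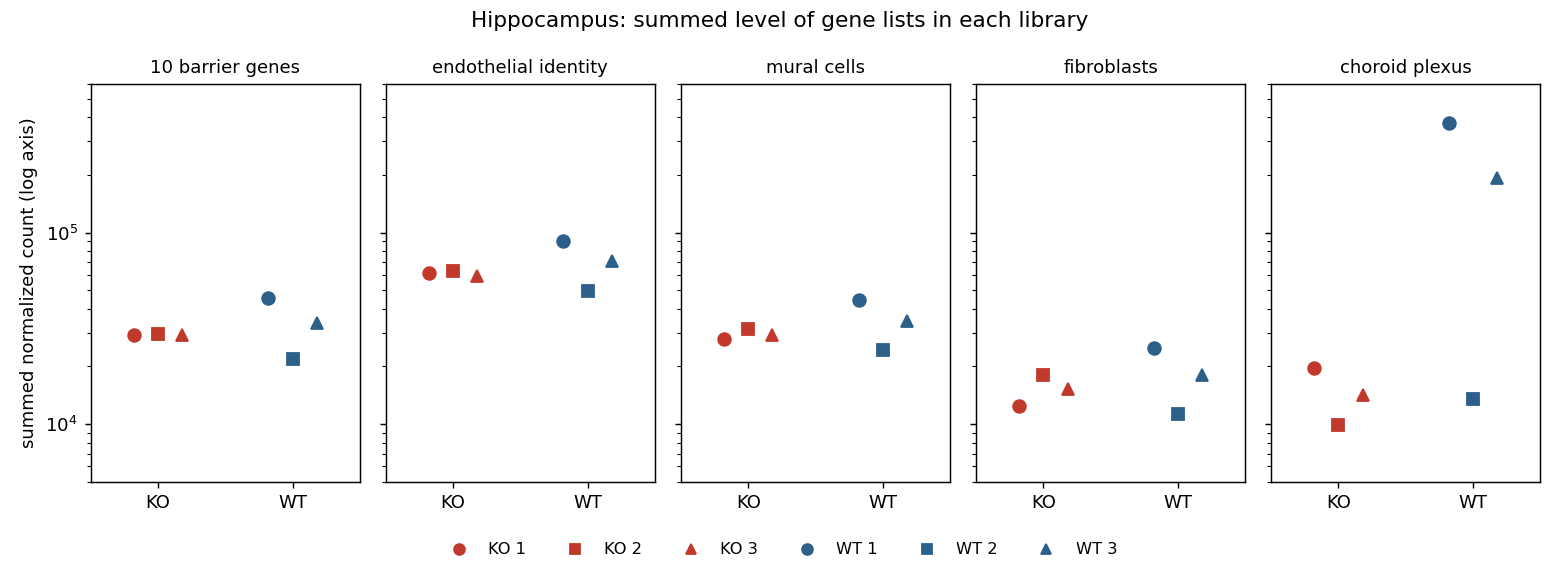
Summed normalized counts (log axis) of the 10 genes and of endothelial, mural cell, fibroblast and choroid plexus marker lists in each hippocampus library. The WT libraries run in the order 1, 3, 2 in all 5 panels, with choroid plexus sums of 372644, 193042 and 13551.

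The hippocampal result for most members therefore turned on which WT libraries were used. Without WT hippocampus library 2, 6 members fell in KO and Mfsd2a rose, with 35.2% of all genes called. Cldn5 then fell by 1.12 on the log2 scale (limma adjusted p = 0.000952), Flt1 by 0.76, Kdr by 0.72, Slco1a4 by 0.69, Tek by 0.58 and Pecam1 by 0.52. Without WT hippocampus library 1, 0 members fell, and Slc2a1 rose (0.45, adjusted p = 0.0219) beside Mfsd2a (0.48, adjusted p = 0.00206), with 25.9% of all genes called. Cldn5 was -0.45 there (adjusted p = 0.145), and Pecam1, Slco1a4, Tek and Abcb1a were 0.04, 0.08, 0.01 and 0.23.

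Around the members in hippocampus, Cd34, a sialomucin of vessel lining, was the 1 of 26 endothelial identity genes that rose (log2 fold change 0.38 ± 0.10, limma adjusted p = 0.0269), and 0 fell, with a list median of -0.16. Cd34 was called in 10 of 17 alternatives. Without WT hippocampus library 2, 15 of the 26 genes fell, as did 3922 of all 22284 genes tested in that setting. Of 20 VEGF and angiopoietin genes 2 rose and 5 fell, a share near the 29.2% called among all genes in hippocampus. Hif1a, the oxygen-sensing transcription factor, rose by 0.21 ± 0.04 (adjusted p = 0.00638). Ptprb, an endothelial phosphatase that restrains Tek, fell by 0.78 ± 0.17 (adjusted p = 0.0133) and Notch1, a receptor that shapes sprouting, fell by 0.42 ± 0.06 (adjusted p = 0.0015). When a trend along exonic length was removed from each library before the limma fit, Ptprb was -0.42 (adjusted p = 0.144) and Notch1 -0.02 (adjusted p = 0.834).

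Of 15 endoglin and TGF-beta signalling genes 1 rose and 3 fell in KO hippocampus, and of 14 Wnt7 and norrin genes 3 rose and 1 fell, again near the 29.2% called among all genes. Bmpr2, a receptor for bone morphogenetic proteins, had 7061, 7232 and 7857 normalized counts in KO hippocampus against 12662, 14551 and 13713 in WT hippocampus, a log2 fold change of -0.88 ± 0.06 (limma adjusted p = 8.88e-05; -0.38 with the length trend removed, adjusted p = 0.00117). Lrp6, a Wnt co-receptor, had 2715, 2892 and 2723 normalized counts in KO hippocampus against 5471, 5097 and 5158 in WT hippocampus. It fell by 0.92 ± 0.05 (adjusted p = 2.73e-05) and by 0.54 with the length trend removed (adjusted p = 0.000726). The ligands Ndp (norrin) and Wnt7b rose by 0.41 ± 0.07 (adjusted p = 0.00437) and 0.27 ± 0.08 (adjusted p = 0.0352), of which Wnt7b did not pass with the length trend removed (0.24, adjusted p = 0.0538).

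Of 14 junction partners 1 rose and 1 fell in KO hippocampus, below the 29.2% called among all tested genes (14.1% higher and 15.1% lower). The scaffold Tjp1 (ZO-1) fell by 0.42 ± 0.04 (limma adjusted p = 0.00037) and Ctnnb1, beta-catenin, rose by 0.16 ± 0.04 (adjusted p = 0.0141). Of 20 other barrier transporters 1 rose and 2 fell: Slc3a2, the heavy chain of amino acid carriers, rose by 0.24 ± 0.05 (adjusted p = 0.00852), Lrp8, a lipoprotein receptor, fell by 0.50 ± 0.03 (adjusted p = 8.1e-05) and Slc7a1, a carrier of cationic amino acids, fell by 0.21 ± 0.04 (adjusted p = 0.0111). With the length trend removed, the log2 fold change of Slc7a1 turned positive, at 0.081, and did not pass (adjusted p = 0.3). Of 12 arterial and venous zonation genes 2 rose, and of 17 mural cell genes 2 fell, both near the share of all genes called in that direction. Among the mural cell genes that fell was Abcc9, a potassium channel subunit of pericytes (-0.51 ± 0.11, limma adjusted p = 0.0117). None of 7 caveolae and fenestrae genes or 5 tested endothelial activation genes was called by limma. Of the cells around the vessel, 7 of 13 astrocyte and endfoot genes rose and 1 fell, and 10 of 12 microglia genes rose and 0 fell. In both lists the rising share was above the 14.1% of all tested genes. Tjp1, Ctnnb1, Notch1 and Lrp6 are also expressed outside endothelial cells, which bulk RNA does not separate. Nor does bulk RNA show which cells gave the rise of Mfsd2a in KO hippocampus.

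Whether the KO effect differed between the tissues was tested directly, as the effect in hippocampus minus that in cortex over all 12 libraries. The fit took the libraries as independent, and the labels do not say whether cortex and hippocampus libraries share mice. The members passing numbered 0 of 10 by limma, against 3.02% of 21282 genes tested in both tissues (0.963% higher and 2.05% lower). An unadjusted limma p under 0.05 was seen for 1 of 10 members, Flt1, and for 4817 of the 21282 genes. The difference for Flt1 was -0.91 ± 0.31 on the log2 scale (limma adjusted p = 0.122), that for Slco1a4 -0.80 ± 0.38 (adjusted p = 0.24) and that for Eng -0.60 ± 0.28 (adjusted p = 0.222). For 9 members the hippocampal estimate was the lower one, and for Mfsd2a the difference was 0.17 ± 0.17 (95% interval -0.20 to 0.54). The Mfsd2a estimates were 0.51 in hippocampus and 0.34 in cortex, of which the hippocampal one passed. Without WT hippocampus library 2, 5 members passed, each lower in hippocampus (Flt1, Slco1a4, Eng, Abcb1a and Cldn5), with 3.81% of all genes called. With a block for each replicate number within a genotype, as if the tissues shared mice, 0 members passed and 1.01% of all genes were called. The smallest adjusted p of a member was then 0.0712 (limma), for Flt1.

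Ratios between members within a library do not depend on the library's scaling. Of the 45 pairs of members, the KO and WT ratios did not overlap for 25 pairs in cortex and 30 in hippocampus, where the pairs share members. Among all pairs of tested genes, 26.3% of ratios in cortex and 40% in hippocampus did not overlap. Of the member pairs, 16 were separated in the same direction in both tissues and 1 in opposite directions. The share of such pairs among all tested genes was not computed, and 8 of the 16 held Cldn5. Cldn5 was singled out after its values were seen. Cldn5 relative to each other member was lower in every KO library than in every WT library for 9 of 9 members in cortex and 8 of 9 in hippocampus, where the ratio to Kdr overlapped. Divided by every other tested gene in turn, Cldn5 was separated in this direction for 57.5% of genes in cortex and 39.3% in hippocampus.

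Against Pecam1, the general vessel marker, Cldn5 was 1.24, 1.40 and 1.28 in KO cortex and 1.99, 1.94 and 1.77 in WT cortex. In hippocampus this ratio was 1.21, 1.35 and 1.27 in KO and 1.94, 1.66 and 1.93 in WT. The levels of Cldn5 itself spread widely over the WT hippocampus libraries, while this ratio did not. Against Slc2a1, Cldn5 was 0.252 ± 0.00986 in KO cortex and 0.472 ± 0.0294 in WT cortex (SD, n = 3 each), and 0.269 ± 0.0109 in KO hippocampus and 0.564 ± 0.121 in WT hippocampus. Eng relative to Pecam1 was 1.76, 2.13 and 1.91 in KO cortex against 1.40, 1.20 and 1.35 in WT cortex. In hippocampus it was 1.65, 1.65 and 1.65 in KO against 1.33, 1.32 and 1.30 in WT. Eng was thus higher relative to Pecam1 in all KO libraries of both tissues, and so were Slc2a1 and Abcb1a. The share of all tested genes separated from Pecam1 in this way was not computed. No test was run on these ratios. With 3 libraries against 3, the smallest two-sided p of an exact permutation test is 0.1, so that test could not bring a single ratio below 0.05.

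**Figure D5:**
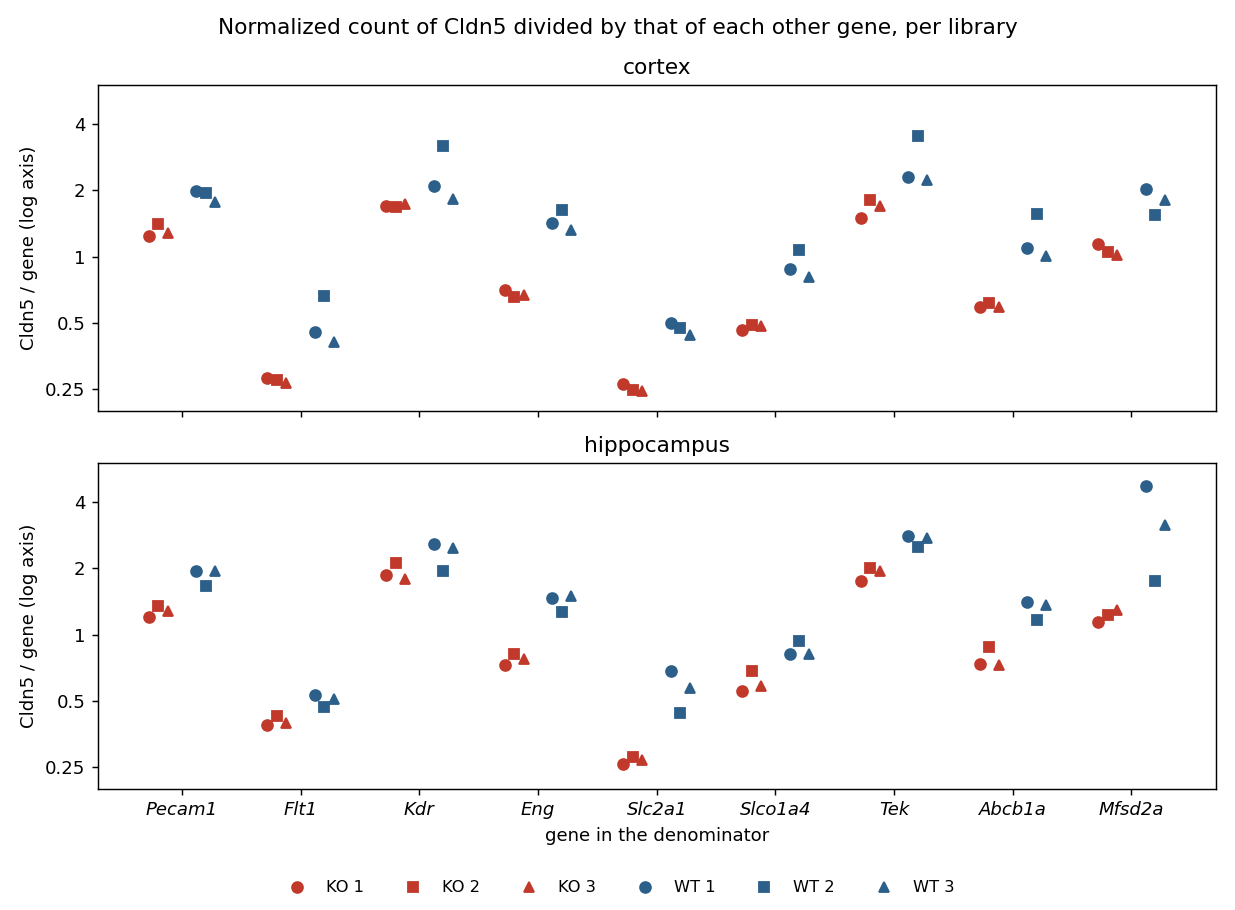
Normalized count of Cldn5 divided by that of each other member in the same library (log axis), in cortex (top) and hippocampus (bottom). All KO points lie below all WT points for 9 of 9 genes in cortex and 8 of 9 in hippocampus, Kdr being the exception.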

How the data were processed

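The authors deposited 1 table per tissue with normalized counts (a signal: read counts divided by a size factor per library). STAR, HTSeq, DESeq2 and GRCm38 are named, with no versions or settings, per the submitters' processing notes; strandedness was not given. All values were whole multiples of 1 step per library (100% within 0.001; steps 0.902 to 1.07), from which reads were recovered; for WT cortex libraries 1 and 2 the step is too near 1 to check. A value of 0 allows up to 3 reads, counting error only. Columns of other samples numbered 0.

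Of 55487 gene rows 55227 matched GENCODE (GRCm38). Each tissue was fitted alone with limma 3.58.1 (R 4.3.3, prior variance following expression) on log2(normalized count + 1), leaving out genes whose mean was under 10; fold changes on this scale understate low genes. p-values were adjusted (Benjamini-Hochberg) over all tested genes, and below 0.05 was called. edgeR 4.0.16 and DESeq2 1.42.0 were run on the recovered hippocampus reads. The members and 19 gene lists (245 genes) were chosen with earlier results of these data known. Named genes are all members, Tert and up to 3 genes per list and tissue with the smallest p; Fpgs was added after its values were seen.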

Additional observations from a re-analysis of the deposited data

Results flagged for a closer look

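Among the 10 members and the list genes named, the KO effect differed between the tissues for Gfap and Vwf. Gfap, an intermediate filament of astrocytes, had 37818, 37453 and 36126 normalized counts in KO hippocampus against 29956, 32074 and 30812 in WT hippocampus. It had 7076, 6687 and 6613 in KO cortex against 8205, 8725 and 8334 in WT cortex. It rose in KO hippocampus (0.26 ± 0.04, limma adjusted p = 0.00403) and fell in KO cortex (-0.31 ± 0.06, adjusted p = 0.0497, a call lost in 9 of 15 alternatives), and the effect in hippocampus minus that in cortex was 0.57 ± 0.07 on the log2 scale (adjusted p = 0.00295). The difference passed in 20 of 21 alternatives, the exception being the scale relative to the endothelial list (adjusted p = 0.351).

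For Vwf, the blood clotting factor made by endothelial cells, the effect in hippocampus minus that in cortex was -0.84 ± 0.20 (limma adjusted p = 0.0468). Vwf had 2624, 2912 and 2508 normalized counts in KO hippocampus against 3199, 2309 and 2855 in WT hippocampus, which overlap. It had 2118, 1688 and 1923 in KO cortex against 1237, 899 and 1187 in WT cortex, where every KO library was higher. With the exonic length trend removed the difference was -0.44 (adjusted p = 0.171), and it passed in 9 of 21 alternatives.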

How the results depend on the processing

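Tert stayed called in both tissues in every alternative. Of the members, Eng in cortex was called in 13 of 15 alternatives, Slc2a1 in 6, Slco1a4 in 7 and Cldn5 (as lower) in 3, and Mfsd2a in hippocampus in 16 of 17. Genes called in cortex numbered 426 in the reported fit, 233 with no filter on low values, 86 with a prior variance without trend, 1285 with the exonic length trend removed and 3066 relative to the endothelial list, an alternative chosen after seeing the data. Members called in cortex then numbered 1 without trend and 6 with the length trend removed, against 3 as reported. In hippocampus 955 genes and 0 members were called relative to the endothelial list, against 6513 and 1. DESeq2 called 2 of the 10 members there (Mfsd2a, and Kdr at -0.55, DESeq2 adjusted p = 0.00891), against 30% of all 22337 genes. In hippocampus the rising share of calls was 60.7% after quantile normalization and 37.4% without trend, against 48.2%. Relative to the endothelial list it was 4.47% in cortex (against 66%), 19.1% in hippocampus and 44.6% for the difference between tissues (against 31.9%). For the difference between tissues 642 genes were called, against 370 with no filter, 1013 after quantile normalization, 253 without trend, 1023 with the length trend removed and 112 relative to the endothelial list. The cause of these shifts was not tested. edgeR and DESeq2 were not run for cortex or for the difference between tissues.

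Leaving out 1 library gave 15 to 4693 called genes and 0 to 7 members in cortex, 3656 to 7833 genes and 1 to 7 members in hippocampus, and 171 to 1965 genes and 0 to 5 members for the difference between tissues. Estimates that changed sign ranged from -0.13 to 0.15 for Kdr in cortex. In hippocampus they ranged from -0.52 to 0.038 for Pecam1, -0.19 to 0.37 for Eng, -0.69 to 0.076 for Slco1a4, -0.58 to 0.0089 for Tek and -0.30 to 0.23 for Abcb1a. The difference between tissues for Mfsd2a ranged from -0.00027 to 0.28. Other sign changes came relative to the endothelial list for Pecam1 (-0.10) and Kdr (-0.21) in cortex, Abcb1a (0.11) in hippocampus and the differences between tissues of Cldn5 (0.011), Pecam1 (0.0019) and Slc2a1 (0.15). With the length trend removed Kdr in cortex was -0.013 and Slc7a1 in hippocampus 0.081, and with edgeR Eng in hippocampus was -0.0048. None of the values with the changed sign passed.

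Libraries with the same replicate number did not deviate together (correlations of -0.0649 to 0.0915 between KO and WT within a tissue). Between hippocampus and cortex of the same genotype, these correlations were -0.0859 to 0.0618. With 3 libraries per group, they cannot show whether the numbers pair libraries. With the replicate number as a block, 45 genes (0.205%) and 0 members were called in cortex, and 216 genes for the difference between tissues; in hippocampus Mfsd2a stayed called (adjusted p = 0.00479).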
